A study of Mus musculus with 6 samples.

Results

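The genes described here are 6 ligands of the epidermal growth factor (EGF) family, Egf, Hbegf, Areg, Ereg, Btc and Tgfa, and the 4 ERBB receptors Egfr, Erbb2, Erbb3 and Erbb4. They were taken by symbol from a table of 17933 genes, and all 10 were found in it. RNA was measured in whole kidney of wild-type male C57BL/6 mice aged 6 to 8 weeks. The stone group (n = 3 samples) received glyoxylic acid at 120 mg/kg by daily injection into the peritoneum for 12 days, a model of calcium oxalate kidney stones, and the control group (n = 3 samples) received the same volume of saline. Values are the authors' FPKM, fragment counts normalized by the authors for gene length and library total, so levels of different genes can be set side by side. The labels do not say that each sample came from its own mouse, so p-values here describe the spread among the samples measured, part of which may be technical.

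EGF family ligands are made as membrane-anchored precursors that proteases cut to release the growth factor. All 6 ligands bind the receptor EGFR. HB-EGF, betacellulin and epiregulin, encoded by Hbegf, Btc and Ereg, also bind ERBB4. ERBB2 has no known ligand of its own and pairs with the other receptors, and ERBB3, which binds neuregulins, has little kinase activity and signals through its partners. In the kidney EGF is made mainly by the thick ascending limb and the distal convoluted tubule. It passes into the urine, where it has been studied as a marker of tubule health.

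The promoters of 3 members are shown because these genes stand at the extremes of the comparison: Egf had the largest fall, Egfr the largest rise among the tested members, and Areg was close to 0 in control kidneys. RefSeq promoter sequences of build GRCm38.p6, each from 250 bases before to 50 bases after the gene's start, were matched to 7 of the 10 members. Each was searched on both strands for the TATA box TATAAA, the cyclic AMP response element TGACGTCA, the AP-1 site TGAGTCA and the GC box GGGCGG, and matches are in capitals. The first sequence is that of Egf (chr3:129755273-129755572, minus strand), the second that of Areg (chr5:91139349-91139648, plus strand) and the third that of Egfr (chr11:16751953-16752252, plus strand).
Egf: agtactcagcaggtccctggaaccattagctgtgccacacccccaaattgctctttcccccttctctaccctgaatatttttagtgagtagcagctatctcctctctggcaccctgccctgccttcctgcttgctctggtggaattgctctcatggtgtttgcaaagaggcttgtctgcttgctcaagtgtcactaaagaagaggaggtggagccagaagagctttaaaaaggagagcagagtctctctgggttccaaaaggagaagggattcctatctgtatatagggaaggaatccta
Areg: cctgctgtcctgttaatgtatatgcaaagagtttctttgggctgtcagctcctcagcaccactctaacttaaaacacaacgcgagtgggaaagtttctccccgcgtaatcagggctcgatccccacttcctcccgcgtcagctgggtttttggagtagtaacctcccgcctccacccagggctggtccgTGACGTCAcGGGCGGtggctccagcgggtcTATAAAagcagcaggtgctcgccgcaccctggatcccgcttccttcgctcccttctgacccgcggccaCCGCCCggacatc
Egfr: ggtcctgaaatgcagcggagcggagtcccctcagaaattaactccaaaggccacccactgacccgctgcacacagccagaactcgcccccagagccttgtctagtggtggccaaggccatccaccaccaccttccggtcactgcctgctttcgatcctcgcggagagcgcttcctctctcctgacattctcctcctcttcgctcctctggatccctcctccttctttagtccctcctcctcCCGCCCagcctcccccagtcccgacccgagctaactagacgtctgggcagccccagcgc
The Areg promoter held TATAAA with its first base at position -31 and TGACGTCA at -61, counted from the start of the gene, with a GC box next to it at -52 and another on the opposite strand at 38. TGACGTCA occurs in 1.79% of all 32851 RefSeq promoters of this length, TATAAA in 13.6%, TGAGTCA in 5.20% and GGGCGG in 35.7%. The Egf promoter held none of the 4 motifs, and neither did its second promoter in the table. The Egfr promoter held only a GC box, at -9 on the opposite strand. A match of letters is a description of the sequence and was not tested for binding.

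Across the family, Egf fell, Egfr and Erbb2 rose and Erbb3 fell in stone kidneys. Of the 10 genes, 8 averaged 1 FPKM or more across all samples and were tested, while Areg and Ereg were below that level. By limma on log2(FPKM + 1) with Benjamini-Hochberg adjusted p below 0.05 over 12319 tested genes, 2 members were higher, 2 lower and 4 not called. Over all tested genes 57.4% were called, 43.5% higher and 13.9% lower, so a call on 4 of 8 members is close to the background. The median log2 fold change of the 8 tested members was 0.06, against 0.21 for all tested genes. Dividing samples by median-of-ratios factors moved the median of all genes to -0.01, so the sign of any change of that size depends on the scaling, and values under this scaling are given beside those as deposited. Under it 48.7% of genes were called, 22.5% higher and 26.2% lower, and the same 4 members were called. The groups did not overlap for 4 of the 8 tested members, against 66.3% of all tested genes. For the 10 genes, calls under other settings are given where they differ, and for other genes described they are given in part. The other settings called 47.6% of genes after quantile normalization, 75% with equal FPKM sums, 43.3% with no filter on low values and 71% with array weights. Leaving out a sample gave 56.3% without control sample 3, 47% without control sample 1, 54.7% without stone sample 1 and 47.6% without stone sample 3.

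**Figure D1:**
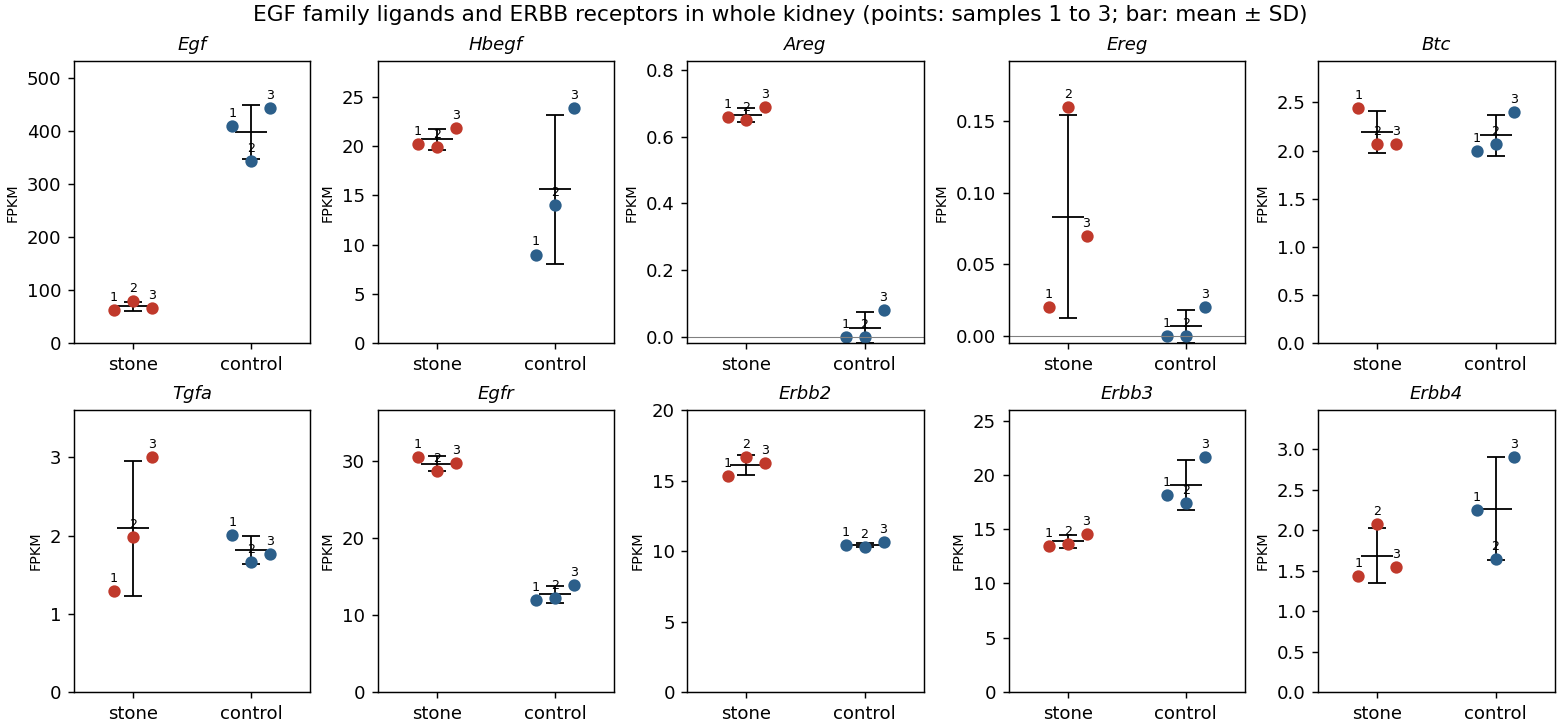
FPKM of the 10 genes in each stone sample (red) and control sample (blue), numbered by replicate, with the mean and SD of each group (n = 3 each); every panel has its own linear axis that includes 0. The groups do not overlap for Egf, Areg, Egfr, Erbb2 and Erbb3, and they overlap for Hbegf, Ereg, Btc, Tgfa and Erbb4.

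Egf, the ligand gene named for the family, carried the largest difference among the tested members. The gene occupies positions 129677574 to 129755322 of chromosome 3, minus strand (GRCm38.p6). Egf measured 63.3, 79.4 and 67.1 FPKM in stone samples 1 to 3, against 408, 343 and 443 FPKM in control samples 1 to 3. All 3 stone values lay below all 3 control values. Its mean was 69.9 ± 8.40 FPKM in stone kidneys and 398 ± 50.7 FPKM in control kidneys (SD, n = 3 each), a 5.69-fold lower level, with a log2 fold change of -2.49 and an SE of 0.119 (limma, adjusted p = 1.66e-05). After median-of-ratios scaling the log2 fold change was -2.75. Among all tested genes the Egf fold change lay at percentile 0.211. By level, Egf stood at percentile 92.3 of the table in stone kidneys and 98.6 in control kidneys, and it was the most abundant of the 10 genes in both groups. In whole kidney RNA, fewer cells of a type and less RNA per cell cannot be told apart.

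Markers of the nephron segments that make EGF moved less than Egf, apart from Pvalb. Over all tested genes 13.9% fell and 43.5% rose. Egf lay at percentile 0.211, so nearly all tested genes had a fold change above its own. Of 7 tested thick ascending limb markers 4 fell and 0 rose, and 7 of 7 had a log2 fold change above that of Egf. Slc12a1, the sodium-potassium-chloride cotransporter of this segment, had the lowest, at -1.10 (limma, adjusted p = 0.024). Umod, which encodes uromodulin, stood at 936, 1713 and 1249 FPKM in stone samples 1 to 3 and at 1749, 1524 and 1738 FPKM in control samples 1 to 3, and did not pass (limma, adjusted p = 0.129), though median-of-ratios scaling made it a lower call, at -0.66 (adjusted p = 0.0273 by limma). Of 6 tested distal convoluted tubule markers 3 fell and 0 rose, and 5 of 6 had a log2 fold change above that of Egf. The exception was Pvalb, the parvalbumin gene of early distal convoluted tubule, at 0.84 ± 0.123 FPKM in stone kidneys and 18.7 ± 2.05 FPKM in control kidneys. Slc12a3, the thiazide-sensitive cotransporter gene of the same segment, had a log2 fold change of -0.02. After median-of-ratios scaling 5 of the thick limb markers and 4 of the distal convoluted tubule markers were called lower, against 26.2% of all tested genes.

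A ratio of Egf to these markers within a sample does not depend on how samples are scaled. The summed FPKM of 8 thick limb markers ranged from 1241 to 2222 in stone kidneys and from 2109 to 2535 in control kidneys. Egf over this sum was 0.0511, 0.0357 and 0.0408 in stone samples 1 to 3, against 0.166, 0.163 and 0.175 in control samples 1 to 3. For the 6 distal convoluted tubule markers the sums ranged from 351 to 424 in stone kidneys and from 419 to 445 in control kidneys, and the Egf ratio was 0.149, 0.226 and 0.190 in stone samples and 0.918, 0.814 and 1.06 in control samples. Neither ratio overlapped between the groups (exact permutation test, two-sided, p = 0.1 for each, the smallest that 3 against 3 samples allow). None of these markers was at 0 in every sample. Abundant markers made up most of each sum, Umod in the thick limb and Slc12a3 with Calb1 in the distal convoluted tubule. The ratios thus say little of low markers such as Pvalb.

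**Figure D2:**
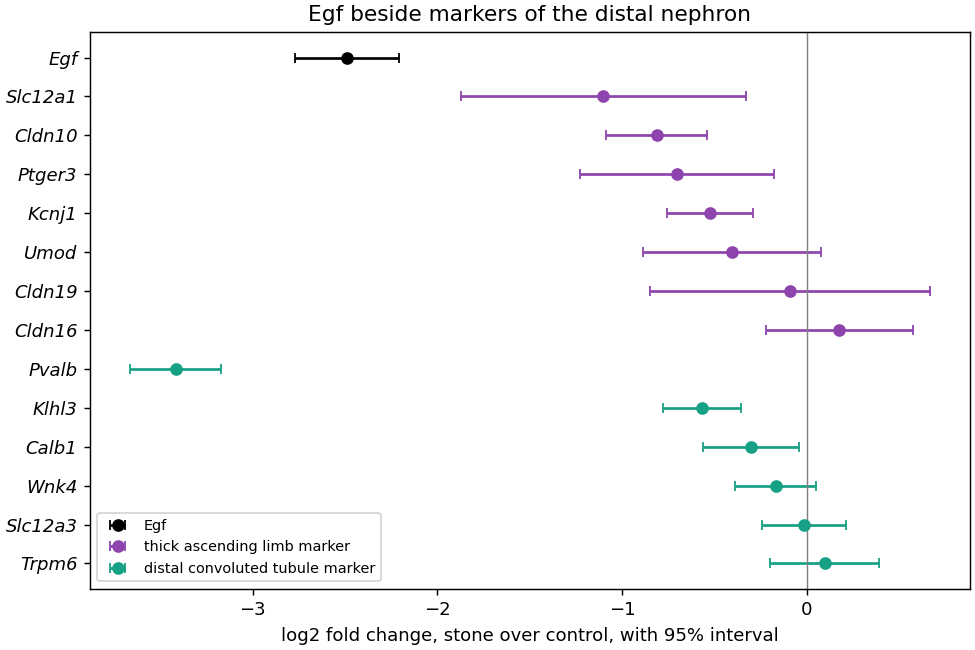
Log2 fold change of stone over control on the log2(FPKM + 1) scale, with its 95% interval from limma, for Egf (black) and the tested markers of the thick ascending limb (purple) and distal convoluted tubule (green). Egf stands at -2.49, below all of these markers except Pvalb at -3.42.

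Hbegf, the gene of heparin-binding EGF-like growth factor, was second among the ligands by mean level in both groups. It measured 20.2, 19.9 and 21.8 FPKM in stone samples 1 to 3, against 9.0, 14.0 and 23.8 FPKM in control samples 1 to 3. The stone samples lay close together, and control sample 3 was above all of them. The log2 fold change of 0.48 had a 95% interval from -0.20 to 1.16 and did not pass (limma, adjusted p = 0.188). Without control sample 3 it was 0.82 and passed (limma, adjusted p = 0.00937), and without control sample 1 it was 0.17 (limma, adjusted p = 0.523). With array weights, which let samples count unequally, it was 0.92 (limma, adjusted p = 0.00779).

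Immediate-early genes, which respond quickly to ERK signalling, had the same order among the control samples as Hbegf. Fos was at 15.1, 17.1 and 25.8 FPKM in stone samples 1 to 3 and at 0.92, 33.4 and 68.9 FPKM in control samples 1 to 3. Egr1, another transcription factor gene, was at 28.0, 39.8 and 41.25 FPKM in stone samples and at 3.02, 42.9 and 136 FPKM in control samples. Of the 23 ERK-induced transcripts listed, 17 had their lowest value of the 6 samples in control sample 1 and 9 their highest in control sample 3. The share of all tested genes with such an order was not counted, so these counts cannot be called particular to the list. Fos, Egr1, Jun and Plaur, plotted beside Hbegf, were picked after their values were seen. The part of this spread in the Hbegf result was not tested.

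**Figure D3:**
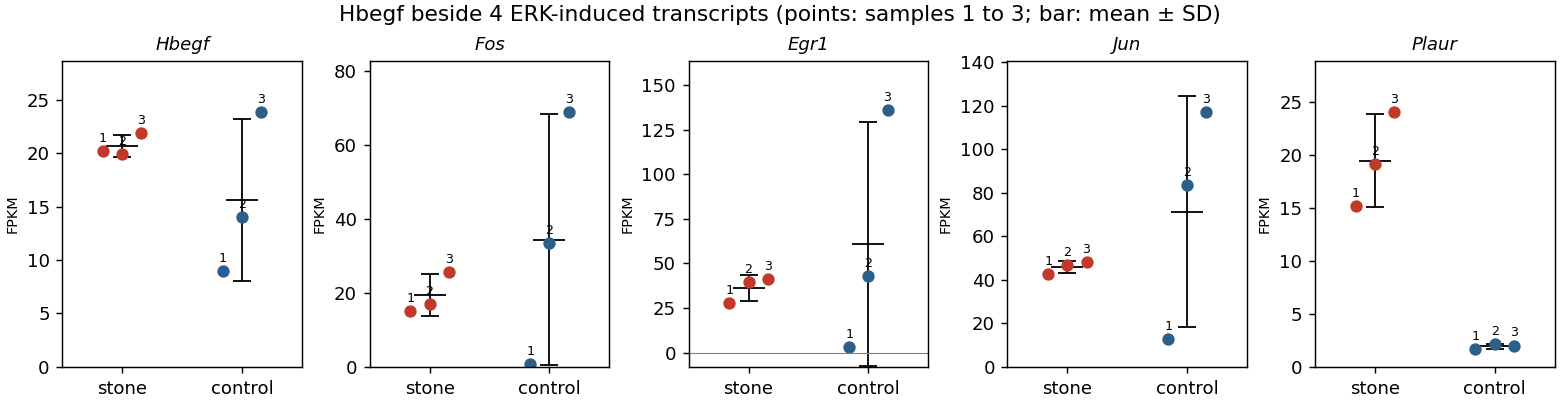
FPKM of Hbegf, of the immediate-early genes Fos, Egr1 and Jun, and of Plaur, in stone samples (red) and control samples (blue), numbered by replicate, with mean and SD (n = 3 each) on linear axes. Control samples 1 to 3 stand in the same order for Hbegf, Fos, Egr1 and Jun, while Plaur is higher in all 3 stone samples than in all 3 control samples.

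Areg, the amphiregulin gene, was near 0 in control kidneys and low in stone kidneys. It measured 0.66, 0.65 and 0.69 FPKM in stone samples 1 to 3, against 0, 0 and 0.08 FPKM in control samples 1 to 3. The stone values were close together, each above every control value. Areg was too low for the main test. With no filter on low values, its difference on the log2(FPKM + 1) scale was 0.70 (limma, adjusted p = 0.00023), a value that the added 1 FPKM makes small. Ereg, the epiregulin gene, is its neighbour on chromosome 5 and was lower still, at 0.02, 0.16 and 0.07 FPKM in stone samples 1 to 3 and 0, 0 and 0.02 FPKM in control samples 1 to 3. The groups touched at 0.02 FPKM, and with no filter Ereg did not pass (limma, adjusted p = 0.146). At such levels an exact 0 may be a failed estimate, so no ratio of stone over control FPKM is given for either gene.

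Btc and Tgfa, the genes of betacellulin and transforming growth factor alpha, did not pass. Btc measured 2.44, 2.07 and 2.07 FPKM in stone samples 1 to 3, against 2.00, 2.07 and 2.40 FPKM in control samples 1 to 3, so the groups overlapped almost wholly. Its log2 fold change was 0.02, with a 95% interval from -0.23 to 0.27 (limma, adjusted p = 0.904). After quantile normalization it was called lower, at -0.37 (limma, adjusted p = 0.0451). Tgfa measured 1.29, 1.98 and 3.01 FPKM in stone samples 1 to 3, against 2.01, 1.66 and 1.77 FPKM in control samples 1 to 3. Stone samples 1 and 3 lay on either side of every control sample. The Tgfa log2 fold change was 0.10, with a 95% interval from -0.37 to 0.57 (limma, adjusted p = 0.686), and -0.11 without stone sample 3. Stone sample 3, the highest for Tgfa, also held the highest levels of the uroplakin genes Upk1a, Upk1b, Upk2 and Upk3a, with Upk3a at 0.08, 0.41 and 14.4 FPKM in stone samples 1 to 3 and 2.86, 0.79 and 1.58 FPKM in control samples 1 to 3. The summed FPKM of 8 urothelial and squamous markers ranged from 13.0 to 69.0 in stone kidneys and from 3.95 to 13.9 in control kidneys. Of the 6 tested markers 1 was called higher and 0 lower, against 43.5% and 13.9% of all tested genes. The called marker was the keratin gene Krt20, at 11.6, 15.98 and 14.3 FPKM in stone samples 1 to 3 and 0.08, 0.44 and 0.13 FPKM in control samples 1 to 3. Their part in the Tgfa values was not tested.

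With these changes the mix of ligand transcripts differed between the groups. The 6 ligands summed to 88.0, 104 and 94.8 FPKM in stone samples 1 to 3, against 421, 361 and 471 FPKM in control samples 1 to 3. Egf made up 72.0%, 76.2% and 70.8% of that sum in stone samples and 96.9%, 95.1% and 94.0% in control samples. Hbegf made up 23.0%, 19.1% and 23.0% in stone samples and 2.14%, 3.88% and 5.06% in control samples. Shares within a sample add to the whole, so a fall of Egf raises the share of each other ligand. The 5 ligands other than Egf summed to 24.6, 24.8 and 27.7 FPKM in stone samples and to 13.0, 17.7 and 28.1 FPKM in control samples, and here the groups overlapped.

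Of the receptors, Egfr rose most. The gene lies on chromosome 11 from 16752203 to 16913907 on the plus strand. Egfr measured 30.6, 28.7 and 29.8 FPKM in stone samples 1 to 3, against 11.9, 12.15 and 13.95 FPKM in control samples 1 to 3. Each stone value was more than 2 times each control value. The means were 29.7 ± 0.949 FPKM in stone kidneys and 12.7 ± 1.11 FPKM in control kidneys (SD, n = 3 each), a 2.34-fold difference, with a log2 fold change of 1.17 and an SE of 0.0751 (limma, adjusted p = 5.08e-05). Median-of-ratios scaling gave 0.92 (adjusted p = 0.000131 by limma). Its fold change lay at percentile 94.6 of all tested genes.

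Erbb2, which encodes the receptor that acts as a partner for the others, rose less. It lies on the same chromosome from 98412484 to 98437716, plus strand. Erbb2 measured 15.3, 16.7 and 16.25 FPKM in stone samples 1 to 3, against 10.4, 10.3 and 10.6 FPKM in control samples 1 to 3, with no overlap. A log2 fold change of 0.58 (SE 0.0626) passed the test (limma, adjusted p = 0.000376), and median-of-ratios scaling left 0.34 (adjusted p = 0.00295 by limma). Mien1 overlaps Erbb2 on the opposite strand in GENCODE M21, and the sources used here do not say whether counting used the strand. Mien1 moved in the other direction, at 95.4, 101 and 107 FPKM in stone samples 1 to 3 and 162, 175 and 147 FPKM in control samples 1 to 3.

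Erbb3, the gene of the neuregulin receptor with weak kinase activity, moved the other way. Located on chromosome 10 from 128567523 to 128589635, minus strand, it measured 13.4, 13.65 and 14.6 FPKM in stone samples 1 to 3, against 18.1, 17.4 and 21.7 FPKM in control samples 1 to 3. All stone values were below all control values. A log2 fold change of -0.43 (SE 0.0914) passed the test (limma, adjusted p = 0.00647), and median-of-ratios scaling gave -0.67 (adjusted p = 0.000592 by limma). With FPKM sums made equal between samples it was -0.16 and did not pass (limma, adjusted p = 0.208). Leaving Kap, the most abundant transcript, out of those sums gave -0.46, which passed (limma, adjusted p = 0.0107). Erbb4, whose product binds neuregulins and several EGF family ligands, measured 1.44, 2.08 and 1.54 FPKM in stone samples 1 to 3, against 2.25, 1.64 and 2.91 FPKM in control samples 1 to 3. Stone sample 2 lay above control sample 2, and the log2 fold change of -0.27, with a 95% interval from -0.67 to 0.13, did not pass (limma, adjusted p = 0.207). After quantile normalization Erbb4 was called lower, at -0.65 (limma, adjusted p = 0.0095).

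**Figure D4:**
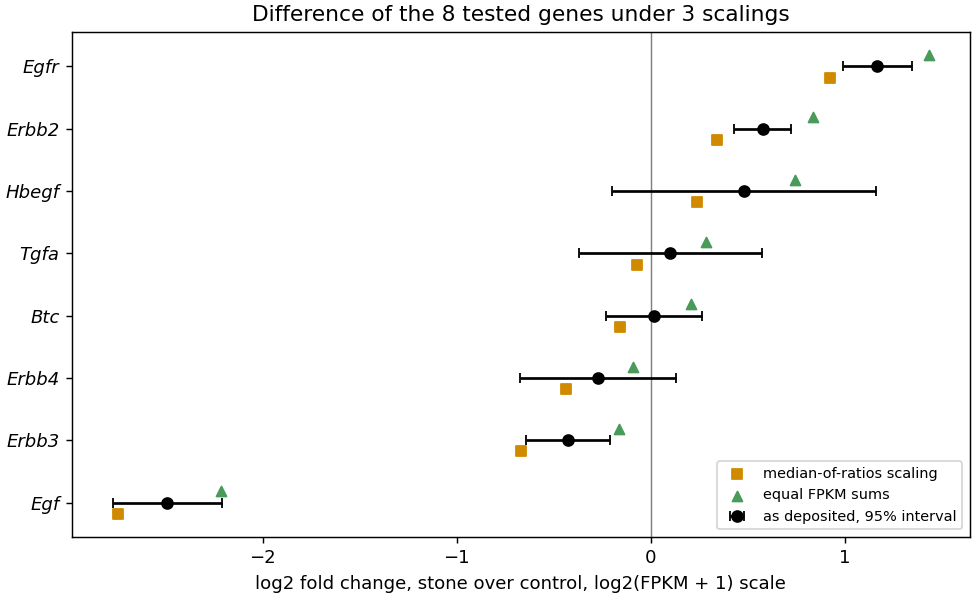
Log2 fold change of stone over control on the log2(FPKM + 1) scale for the 8 tested genes as deposited, with the 95% interval from limma (black), after median-of-ratios scaling (orange squares) and with equal FPKM sums (green triangles). Egf stays between -2.75 and -2.21 and Egfr between 0.92 and 1.43 in these 3 scalings, while Btc and Tgfa change sign.

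Ratios of 2 receptors inside a sample are changed by no scaling, and of the 6 pairs 5 did not overlap between the groups. The 6 ratios come from 4 genes, so they are not separate results. The share over all pairs of genes was not counted, while 66.3% of single tested genes did not overlap. Egfr and Erbb2 were higher and Erbb3 lower in every stone sample than in any control sample, so both ratios to Erbb3 had to separate. Egfr over Erbb3 was 2.28, 2.10 and 2.04 in stone samples 1 to 3, against 0.658, 0.698 and 0.643 in control samples 1 to 3, so Erbb3 was the more abundant in control kidneys and Egfr in stone kidneys. Erbb2 over Erbb3 was 1.14, 1.22 and 1.12 in stone samples and 0.576, 0.592 and 0.490 in control samples. Egfr over Erbb2 was 2.00, 1.72 and 1.83 in stone samples and 1.14, 1.18 and 1.31 in control samples. Each of these 3 ratios gave p = 0.1 in an exact two-sided permutation test, the smallest possible. Erbb3 over Erbb4 overlapped, at 9.32, 6.56 and 9.45 in stone samples 1 to 3 and 8.05, 10.6 and 7.45 in control samples 1 to 3. As shares of the 4 receptors together, Egfr held 48.4 ± 1.75% in stone kidneys and 28.5 ± 0.702% in control kidneys, and Erbb3 held 22.6 ± 0.715% in stone kidneys and 42.8 ± 1.14% in control kidneys (SD, n = 3 each). The summed receptor FPKM was 60.7, 61.1 and 62.1 in stone samples and 42.7, 41.5 and 49.2 in control samples.

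**Figure D5:**
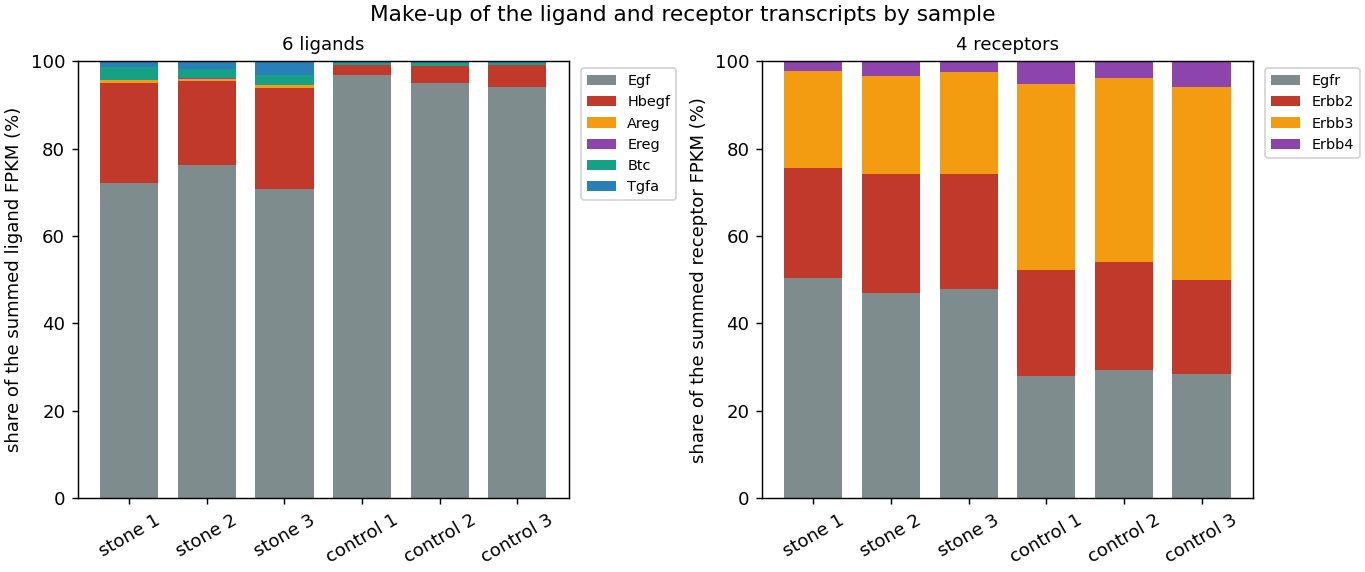
Share of each gene in the summed FPKM of the 6 ligands (left) and of the 4 receptors (right), in percent, with 1 bar per sample and the stone samples on the left of each panel. Egf takes 70.8% to 76.2% of the ligand sum in stone samples and 94.0% to 96.9% in control samples, and Egfr takes 46.9% to 50.3% of the receptor sum in stone samples and 27.9% to 29.3% in control samples.

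The order of levels also changed. In stone kidneys the means ran from Egf through Egfr, Hbegf, Erbb2 and Erbb3 to Btc, and none of these neighbours overlapped. Btc at 2.19, Tgfa at 2.09 and Erbb4 at 1.69 FPKM overlapped their neighbours, and Areg at 0.667 and Ereg at 0.0833 FPKM closed the order. In control kidneys Erbb3 at 19.1, Hbegf at 15.6 and Egfr at 12.7 FPKM followed Egf, and the samples of Hbegf overlapped both neighbours. Erbb2 at 10.45 FPKM came next, below every Egfr sample, and Erbb4, Btc and Tgfa, at 2.27, 2.16 and 1.81 FPKM, overlapped each other in turn.

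Genes whose profile was nearest to that of Egf and Egfr were found by the mean absolute difference of mean-centred log2(FPKM + 1) values over the 6 samples. With 3 samples per group, this measure mainly picks genes with a group difference of like size. Sec14l3 had a log2 fold change of -2.45, against -2.49 for Egf, and Diaph1 1.18, against 1.17 for Egfr. Shared regulation was not tested. Nearest to Egf were Sec14l3 at 0.0533, Smcp at 0.118 and Ces1f at 0.128. Ces1f, a carboxylesterase gene, measured 117 ± 9.52 FPKM in stone kidneys and 575 ± 6.96 FPKM in control kidneys (SD, n = 3 each). Sec14l3 was low, at 0.25 ± 0.110 FPKM in stone kidneys and 5.86 ± 1.10 FPKM in control kidneys. Smcp was low too, at 0.677 ± 0.221 FPKM in stone kidneys and 7.08 ± 1.64 FPKM in control kidneys. As ratios of mean FPKM, Sec14l3 and Smcp both fell more than Egf. The added 1 FPKM makes the falls of such low genes smaller on the log2 scale. Their nearness to Egf thus holds on this scale and not for the ratio of FPKM. Nearest to Egfr were Diaph1, a formin gene, at 0.0371, Tmcc3 at 0.0386 and the phosphatase gene Dusp3 at 0.0398. Diaph1 measured 23.3 ± 0.0833 FPKM in stone kidneys and 9.77 ± 0.826 FPKM in control kidneys.

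Among ERBB ligands outside the 10 genes, Nrg1, the neuregulin 1 gene whose product binds ERBB3 and ERBB4, rose. It measured 21.7, 21.5 and 18.7 FPKM in stone samples 1 to 3, against 3.73, 3.12 and 3.58 FPKM in control samples 1 to 3, a log2 fold change of 2.27 (limma, adjusted p = 1.3e-05). Median-of-ratios scaling gave 2.05. In stone kidneys Nrg1 was thus at the level of Hbegf, whose samples lay between 19.9 and 21.8 FPKM. Nrg4 did not pass (limma, adjusted p = 0.322), and Epgn and Nrg2 were below the level for testing.

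Ligand shedding is the next step of the pathway. The 12 tested genes are proteases, their cofactors and the metalloprotease inhibitor Timp3. Of these 7 rose and 3 fell, against 43.5% and 13.9% of all tested genes. The list median was 0.40 on the log2 scale, against 0.21 over all tested genes. Median-of-ratios scaling gave 6 higher and 4 lower, against 22.5% and 26.2% of all tested genes. Rhbdf2, the inactive rhomboid iRhom2 that carries the sheddase ADAM17 to the surface, was at 9.81 ± 0.164 FPKM in stone kidneys and 3.80 ± 0.276 FPKM in control kidneys (limma, adjusted p = 5.04e-05). Its relative Rhbdf1 was at 27.3 ± 1.91 FPKM in stone kidneys and 13.6 ± 0.596 FPKM in control kidneys (limma, adjusted p = 9.56e-05). Adam17 itself, named here with its values known, had a log2 fold change of 0.61 and rose too (limma, adjusted p = 0.000703). The 3 that fell were Mep1a and Mep1b, subunits of the brush border metalloprotease meprin, by 1.39 and 3.60, and Timp3, whose product inhibits ADAM17 and other metalloproteases, by 0.29 (limma, adjusted p = 0.0335).

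Feedback inhibitors and degradation factors of ERBB receptors rose in 14 of 21 tested genes and fell in 1, with a median of 0.42, against 43.5% and 13.9% of all tested genes and their median of 0.21, and median-of-ratios scaling gave 6 higher and 2 lower, against 22.5% and 26.2% of all tested genes. Ptprj, a receptor phosphatase, rose by 0.85 (limma, adjusted p = 0.000698) and Ptpn1, a phosphatase of the endoplasmic reticulum, by 0.54 (limma, adjusted p = 0.00113). Hgs, an endosomal sorting gene, rose by 0.43, a call lost under median-of-ratios scaling (adjusted p = 0.052 by limma). Usp8, a deubiquitinase of endosomes, fell by 0.51 (limma, adjusted p = 0.00119). Errfi1, the EGFR inhibitor MIG6, is named here with its values known and did not pass, at 388, 342 and 324 FPKM in stone samples 1 to 3 and 214, 294 and 343 FPKM in control samples 1 to 3 (limma, adjusted p = 0.129).

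Adaptors and kinases between the receptors and ERK were mostly near the shift of the whole table. Of 20 tested, 11 rose and 1 fell (43.5% and 13.9% of all tested genes). Median-of-ratios scaling gave 5 higher and 5 lower (22.5% and 26.2% of all tested genes). The list median was 0.26 as deposited and 0.01 under this scaling. Nras, Shc1 and Map2k1 rose by 0.76, 0.69 and 0.65, and Braf fell by 0.31. The Braf call was lost without stone sample 1, stone sample 3 or control sample 1. It was also lost with equal FPKM sums and with the replicate number as a block. Of 22 tested phosphoinositide 3-kinase, AKT, STAT and related effectors, 15 rose and 0 fell, against 43.5% and 13.9% of all tested genes. Median-of-ratios scaling gave 10 higher and 3 lower, against 22.5% and 26.2% of all tested genes. Quantile normalization gave 5 higher and 3 lower, against 2762 higher and 3108 lower of all 12319 tested genes. Stat3 had the smallest p of these, at 51.5 ± 0.724 FPKM in stone kidneys and 16.3 ± 0.483 FPKM in control kidneys (limma, adjusted p = 8.51e-06), and Akt1 and Pik3r1 rose by 0.78 and 0.94.

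Of 21 tested ERK-induced transcripts 11 rose and 0 fell, against 43.5% and 13.9% of all tested genes. Their median was 0.83 as deposited, against 0.21 over all tested genes. After median-of-ratios scaling 9 were higher and 1 lower, against 22.5% and 26.2% of all tested genes. Without control sample 1, the lowest for most of them, 10 were higher and 4 lower. Over all 12366 genes tested in that setting 4460 were higher and 1355 lower. Plaur, the urokinase receptor gene, was at 19.5 ± 4.42 FPKM in stone kidneys and 1.94 ± 0.259 FPKM in control kidneys (limma, adjusted p = 3.36e-05). Ccnd1, the cyclin D1 gene, was at 148 ± 15.0 FPKM in stone kidneys and 48.2 ± 11.0 FPKM in control kidneys, and Klf6, a transcription factor gene, at 42.9 ± 0.835 FPKM in stone kidneys and 10.7 ± 3.58 FPKM in control kidneys. Fos, Egr1 and Jun did not pass (limma, adjusted p = 0.871, 0.809 and 0.872).

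EGF is known to stimulate the magnesium channel TRPM6 of the distal convoluted tubule. Trpm6 itself, named here with its values known, measured 2.75, 3.01 and 3.01 FPKM in stone samples 1 to 3, against 2.54, 2.23 and 3.31 FPKM in control samples 1 to 3, and did not pass (limma, adjusted p = 0.528). Of 13 tested genes of magnesium and distal transport 3 rose and 4 fell, against 43.5% and 13.9% of all tested genes. Median-of-ratios scaling gave 1 higher and 5 lower, against 22.5% and 26.2% of all tested genes. Pvalb fell by 3.42, Pcbd1, a cofactor of the transcription factor HNF1, fell by 0.73, and Trpv5, the calcium channel gene, rose by 1.15 (limma, adjusted p = 0.000509).

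Other receptor tyrosine kinases give a comparison for the ERBB receptors. Of 14 tested, 8 rose and 2 fell, with a median of 0.52, against 43.5% higher, 13.9% lower and a median of 0.21 over all tested genes. Median-of-ratios scaling gave 6 higher and 3 lower, against 22.5% and 26.2% of all tested genes. Axl, Pdgfrb and Ddr1 rose by 1.93, 1.47 and 0.61, and Fgfr4 fell by 0.35. With equal FPKM sums no gene of this list was called lower, so the Fgfr4 call was lost there. Met, the hepatocyte growth factor receptor gene, is named here with its values known and did not pass, at a log2 fold change of -0.09 (limma, adjusted p = 0.415), though median-of-ratios scaling made it a lower call, at -0.34 (adjusted p = 0.0119 by limma).

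Markers of several cell types moved with these changes. Over all tested genes 43.5% were higher and 13.9% lower, and 22.5% and 26.2% after median-of-ratios scaling. All 9 tested markers of injured tubule were higher, with summed FPKM from 762 to 1616 in stone kidneys and from 100.5 to 108 in control kidneys. Of 9 macrophage markers 8 were higher, with sums from 163 to 301 in stone kidneys and from 61.6 to 66.35 in control kidneys, and 8 of 8 fibroblast and myofibroblast markers were higher, with sums from 166 to 279 in stone kidneys and from 52.8 to 69.95 in control kidneys. Of 7 endothelial markers 5 were higher, with sums from 199 to 289 in stone kidneys and from 103 to 173 in control kidneys, and of 6 podocyte markers 5 were higher, with sums from 92.5 to 110.5 in stone kidneys and from 55.7 to 73.2 in control kidneys. After median-of-ratios scaling 9 injured tubule, 8 macrophage, 8 fibroblast and myofibroblast, 4 endothelial and 4 podocyte markers were higher. Of 10 proximal tubule markers 7 were lower and 1 higher, and median-of-ratios scaling gave 8 lower and 1 higher. Of 7 collecting duct principal cell markers 4 were higher and 1 lower, and this scaling gave 1 and 1. Of 7 intercalated cell markers 1 was higher and 1 lower, and this scaling gave 0 and 2. Adipose markers were near 0 in most samples but summed to 234 FPKM in a stone sample and 139 FPKM in a control sample. The part of these cells in the levels of the ligands and receptors was not tested.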

How the data were processed

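Total RNA of whole kidney was extracted with TRIzol and made into libraries with dUTP in the second strand, per the labels' protocols. Per the submitters' processing notes, alignment used HISAT2 2.0.4 and the build GRCm38.p6. The sources used here do not give the quantifier, its annotation or its use of strand. The authors deposited FPKM with 2 decimals, 1 column per sample, and 0 columns belong to other samples. Column sums ranged from 609705 to 613885 in stone samples and from 711768 to 758514 in control samples. Absolute depth is unknown, so no counting intervals are given. In 53 genes with a 0 in some sample and close non-zero values elsewhere, those values were taken to stand for 1 fragment. The sample medians of their log2 deviation from the gene mean lay between -0.04 and 0.06. These genes were chosen for close values, so this cannot show that depth was equal. Genes averaging 1 FPKM or more were tested, 12319 in all, and a fold change is a difference of log2(FPKM + 1), stone minus control, which understates changes of low genes. The test was limma 3.58.1 in R 4.3.3 (lmFit, eBayes with trend), two-sided, with p adjusted by Benjamini-Hochberg across the tested genes and called below 0.05. It was tested first on simulated data with few changed genes and no scaling difference between groups. That run cannot show how calls behave where many genes differ or scaling matters, as here. Values are mean ± SD over 3 samples per group.

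The members and gene lists were chosen with earlier results of these data known. The genes named are the 10 members, the 3 called genes with the smallest p in each pathway list, the leading called gene that went against its list, and the 3 genes nearest to Egf and to Egfr. Where no gene of a list was called, the one with the smallest p is named. Any other gene was chosen after its values were seen. The alternatives were median-of-ratios scaling, quantile normalization, equal FPKM sums with and without Kap (the most abundant transcript), a pseudocount of 0.1, no filter, a minimum mean of 5 FPKM, a replicate block, array weights and leaving out each sample. Gene positions and promoters are those of RefSeq for GRCm38.p6, strands and overlaps those of GENCODE M21, which is on the same build.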

Additional observations from a re-analysis of the deposited data

How the results depend on the processing

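Egf, Egfr and Erbb2 kept their direction and their call under all 15 alternatives, with log2 fold changes from -2.75 to -2.21, from 0.92 to 1.43 and from 0.33 to 0.84, and leaving out single samples from -2.59 to -2.41, from 1.13 to 1.23 and from 0.55 to 0.61. Erbb3 kept its direction and lost its call only with equal FPKM sums, at -0.16. Hbegf was called with array weights, at 0.92, and ranged from 0.17 to 0.82 when single samples were left out, with a call without control sample 3. Erbb4 was called only after quantile normalization, at -0.65, and ranged from -0.42 to -0.13 without single samples. Btc changed sign after median-of-ratios scaling, at -0.16, after quantile normalization, at -0.37 with a call (limma, adjusted p = 0.0451, against 0.0451 to 0.989 over its alternatives), and with equal FPKM sums without Kap, at -0.0086, and ranged from -0.038 to 0.071 without single samples. Tgfa changed sign after median-of-ratios scaling, at -0.069, and after quantile normalization, at -0.28, and ranged from -0.11 to 0.30 without single samples. The cause of these changes was not tested. The difference of Areg was 0.65 after median-of-ratios scaling, 0.57 after quantile normalization, 0.76 with equal FPKM sums and 2.66 with a pseudocount of 0.1, against 0.70 as deposited. That of Ereg was 0.71 with a pseudocount of 0.1, against 0.10. Over the log2(FPKM + 1) sum in place of the FPKM sum, the Egf share differed by -13.0 percentage points, against -22.3, and the Egfr share by 6.07, against 19.9. Genes called higher and lower over the whole table numbered 2776 and 3222 after median-of-ratios scaling, 2762 and 3108 after quantile normalization and 8440 and 797 with equal FPKM sums, against 5356 and 1711. Leaving out single samples gave 4173 to 5269 higher and 1355 to 1686 lower genes. Raising the minimum to 5 FPKM left Btc, Tgfa and Erbb4 untested.

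Same-numbered stone and control samples did not deviate together, with correlations across genes of 0.01, -0.22 and -0.04 for replicates 1 to 3, and the labels give no pairing. With the replicate number as a block, 4861 genes were higher and 1517 lower, and no call on a tested member changed.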
